A study of Mus musculus with 4 samples.

Results

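Mef2Da1 occupancy in differentiated C2C12 cells was described by setting chromatin immunoprecipitation followed by sequencing (ChIP-seq) with a Mef2Da1 antibody against the same antibody blocked with its peptide. All 19749 regions of the authors' combined table were used, which is the whole table, and the authors' list of 8872 Mef2Da1 peaks gave the peak shapes. Of the regions, 8253 contained at least 1 listed Mef2Da1 peak and 11496 contained none. The series holds 4 libraries, and the 2 of this antibody were used here. C2C12 is a line of mouse myoblasts that form myotubes in low serum, and the cells were taken at day 5 of differentiation. Both groups were unmodified C2C12 cells with the endogenous protein, so they shared the cell line, the differentiation medium (horse serum, insulin and transferrin), the formaldehyde crosslink and the antibody. The Mef2Da1 antibody had been raised against a peptide coupled to keyhole limpet hemocyanin, and in the Mef2Da1-BLOCK group it had been blocked with peptide. Each group had 1 library, so no difference below has a replicate error or a replicate test.

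Mef2D belongs to the MEF2 family of transcription factors, which bind an A/T-rich DNA element as dimers through a MADS box and act with the MyoD family when muscle genes are switched on. Alternative splicing of a mutually exclusive exon gives the broadly expressed isoform Mef2Da1 and a muscle isoform, and Mef2Da1 is known to respond to protein kinase A and to recruit class II histone deacetylases. In ChIP-seq, a bound factor appears as a pile of overlapping DNA fragments, and the tallest point of that pile is called the height here. An antibody blocked with its peptide should no longer bind its target, so its library shows the coverage that a region gives without the specific precipitation. Regions are given by coordinates of the mouse build mm9, counted from 1, because no gene annotation or genome of that build was used here. For the same reason no region is assigned to a gene and no sequence is printed.

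Over the table, summed height was 973579 for Mef2Da1 and 377117 for the blocked antibody, a ratio of 2.58. Read numbers per library were not known, so depth and enrichment cannot be told apart in this ratio. Combined regions covered 12.6 Mb on the 19 autosomes and listed peaks 4.33 Mb. Chromatin had been cut to fragments of 150 to 300 bp, library fragments of 200 to 350 bp were isolated on a gel, and 21 rounds of PCR were used. The narrowest listed peak, 208 bp, was about as wide as such a fragment. The markers of the cells could not be checked in these files, which hold no RNA.

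Without scaling, Mef2Da1 stood above its blocked antibody almost everywhere in the table. In regions without a listed peak, the median height was 36 for Mef2Da1 (lowest 8, highest 350) and 17 for the blocked antibody (lowest 1, highest 52). With a listed peak, it was 58 for Mef2Da1 (lowest 42, highest 808) and 21 for the blocked antibody (lowest 2, highest 45). The ranges of the 2 libraries overlapped in both classes, although within a region the Mef2Da1 height was at or below the blocked height in only 143 of 19749 regions, none of them with a listed peak. With heights divided by library totals, Mef2Da1 was below the blocked antibody in 12026 regions, 3224 of them with a listed peak. Unscaled, the single region in which Mef2Da1 was at least 2-fold lower lay at chr15:99668089-99668398, with a height of 9 against 20 for the blocked antibody (0.00506% of the table).

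**Figure D1:**
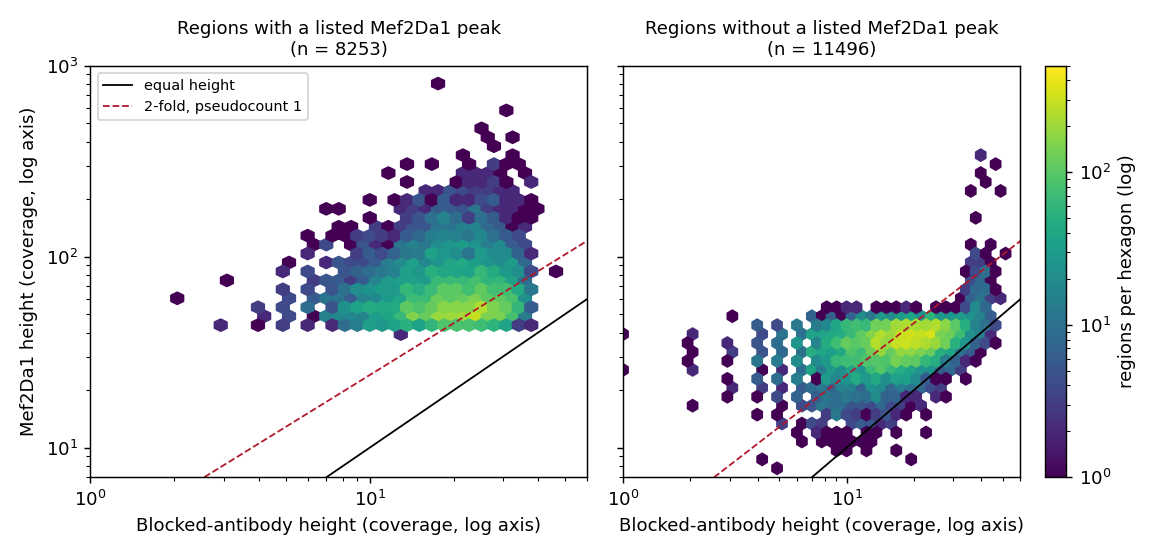
Mef2Da1 height (vertical, log axis) against the height of the blocked antibody (horizontal, log axis) in combined regions with (left) and without (right) a listed Mef2Da1 peak; colour counts regions per hexagon, the solid line marks equal heights and the dashed line 2-fold. Listed regions begin at a Mef2Da1 height of 42, and the right panel has a separate column of tall regions, up to 350, where the blocked height is high (34 or more in all 87 unlisted regions of height 60 or more).

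The ratio was taken as log2 of (Mef2Da1 height + 1) over (blocked height + 1). Over all regions its median was 1.19 unscaled (quartiles 0.83 and 1.65), and Mef2Da1 was at least 2-fold higher in 12770 regions, which is 64.7% of the table. A 4-fold margin or more was reached in 14% of the table (2770 regions) and an 8-fold margin or more in 1.72% (340 regions). Dividing each height by its library's total shifted every log2 ratio down by 1.37, so that 2-fold after scaling meant 5.16-fold before it. The scaled median was −0.18, and 1398 regions (7.08%) were at least 2-fold higher, 126 (0.638%) at least 4-fold higher, 4 (0.0203%) at least 8-fold higher and 932 (4.72%) at least 2-fold lower. The scaled value sets both libraries equal over the combined regions, whose choice is not given in the sources used here. The unscaled value sets no depth equal. The order of the regions is thus the same on both scales and the size of a fold is not.

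Regions with a listed peak lay higher on both scales; the list was chosen on Mef2Da1 signal, so this describes the list and tests nothing. Unscaled, 7035 of 8253 were at least 2-fold above the blocked antibody (85.2%, exact 95% binomial interval 84.5 to 86.0, for counting error only), beside 64.7% in the whole table, with a median log2 ratio of 1.54. At least 4-fold was reached by 2240 (27.1%) and at least 8-fold by 314 (3.80%). After total scaling the counts were 1243 (15.1%), 119 (1.44%) and 4 (0.0485%). In regions without a listed peak, 5735 of 11496 (49.9%, 49.0 to 50.8) were at least 2-fold higher unscaled and 155 (1.35%) after scaling.

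**Figure D2:**
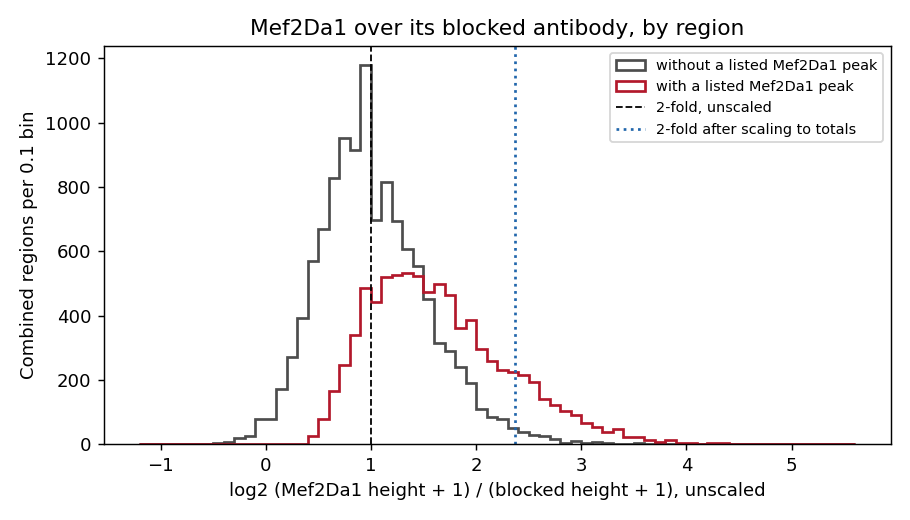
Number of combined regions (vertical) by unscaled log2 ratio of Mef2Da1 to the blocked antibody (horizontal, bins of 0.1), for regions with and without a listed Mef2Da1 peak; vertical lines mark 2-fold unscaled and 2-fold after scaling to totals. The distributions overlap broadly, with medians of 1.54 and 0.97, and the scaled 2-fold line lies in the upper tail of both.

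How far a listed region stood above the blocked antibody depended on both libraries. The SD of log2 (height + 1) across the 8253 listed regions was 0.46 for Mef2Da1 and 0.49 for the blocked antibody. Over all regions it was 0.57 and 0.54. The lower end of the list at 42 cuts the Mef2Da1 spread, so the 2 listed SDs cannot be weighed against each other. The heights of the listed regions had a Spearman correlation of 0.04 across regions of the same 2 libraries, against 0.36 over the 11496 regions without a listed peak and 0.32 over all regions. Listed regions were chosen on Mef2Da1 signal, which limits the range of heights, so these correlations describe the classes and test nothing. Listed regions with a blocked height of 10 or less (491) had a median Mef2Da1 height of 56 and a median log2 ratio of 2.63, whereas those with a blocked height of 31 or more (647) had a Mef2Da1 height of 61 and a ratio of 0.87. The share at least 2-fold higher was 100% and 38.2% in these groups, beside 64.7% in the whole table. The groups were cut on blocked height, the lower part of the ratio, so these shares describe the cut and test nothing. With no listed height below 42, a blocked height of 10 or less fixes the 100%. The list holds no Mef2Da1 height below 42, which by itself keeps the medians of listed regions close together. In regions without a listed peak, the Mef2Da1 median was 32 at blocked heights of 10 or less and 43 at 31 or more.

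Taller Mef2Da1 regions left the blocked antibody behind. For Mef2Da1 heights of 31 to 40, the blocked median was 17 and the median log2 ratio 1.00 (5872 regions). For heights of 61 to 80 the blocked median was 21 and the ratio 1.66 (2134 regions). For heights of 101 to 150 the blocked median was 20.5 and the ratio 2.49 (582 regions), and for heights above 200 it was 25 and 3.29 (79 regions). Blocked height rose with Mef2Da1 height only up to about 50 and then stayed near 20 up to a height of 200. From a Mef2Da1 height of 101 upward every region was at least 2-fold higher unscaled, and after total scaling 62.7% of those at 101 to 150, 93.5% of those at 151 to 200 and 98.7% of those above 200 still were. Height is part of the ratio, so these values describe the regions and test nothing.

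The tallest region lay at chr19:4992149-4993765, where Mef2Da1 reached 808 and the blocked antibody 18. That was a 42.6-fold difference unscaled, or a log2 ratio of 5.41 unscaled and 4.04 scaled, the largest in the table on either scale. Among listed regions, to which this and the next ranks refer, the second in height was chr10:85775793-85777110, with 583 against 30, 18.8-fold unscaled. At chr5:53009065-53010310 the heights were 448 and 25, and at chr5:123584473-123588207, a region 3735 bp wide with 3 listed peaks, they were 415 and 27. The fifth, chr10:80401687-80404955, had 405 against 33 over 3269 bp and 2 listed peaks. Across these leading regions Mef2Da1 heights ran from 405 to 808 and blocked heights from 18 to 33.

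The next listed regions by height were close to one another, and 2 regions without a listed peak, described further on, reached 350 as well. Heights were 374 against 27 at chr17:15598577-15600400 and 356 against 32 at chr17:7031319-7032946. At chr12:35213607-35214467 Mef2Da1 reached 337 within a narrower region of 861 bp, against 21. The region at chr13:5859974-5861176 had 323 against 28, and chr4:47616013-47617383 had 316 against 16, the lowest blocked height among these 10. Unscaled differences in the 10 tallest listed regions ran from 10.8-fold to 42.6-fold.

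Ranking the listed regions by ratio brought forward others, since only chr19:4992149-4993765 and chr10:85775793-85777110 were among the first 10 listed regions on both counts. At chr14:28181316-28182492 the heights were 278 and 12 (21.5-fold), and at chr5:148661705-148662623 they were 307 and 14 (20.5-fold). A narrow region at chr7:19668382-19668961 had 167 against 7 (21.0-fold). The region at chr18:55310464-55311322 had 179 against 8, and chr2:174169333-174170017 had 212 against 10. In 3 others the blocked height was so low that the pseudocount weighs on the ratio: 61 against 2 at chr8:130907160-130907501, 77 against 3 at chr6:53991383-53991728 and 131 against 6 at chr15:77087790-77088154. Those 3 were also narrow, 342, 346 and 365 bp, beside a median of 667 bp for listed regions.

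Among the 314 listed regions at least 8-fold above the blocked antibody (1.72% of all regions in the table reached 8-fold), the median heights were 131.5 and 13. A Mef2Da1 height of 100 or more was found in 215 of them, with a median blocked height of 16. The other 99 were below 100, with a median blocked height of 7. Blocked height was below the median of all listed regions in 269 of the 314. The 314 were picked by their ratio, so tall Mef2Da1 heights and low blocked heights among them restate that choice and test nothing. Of the 808 listed regions with a Mef2Da1 height of 100 or more, all were at least 2-fold higher and 26.6% at least 8-fold higher, unscaled. No listed region had a blocked height above 45, so at such Mef2Da1 heights the 2-fold margin was fixed beforehand. A further 26 regions without a listed peak reached 8-fold, with medians of 39 against 3, and in 3 of those the Mef2Da1 −log10 p was at least 6.

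At the other end of the listed regions, Mef2Da1 barely cleared the blocked antibody. The lowest ratio was at chr2:38250533-38251315, with 46 against 39 (1.18-fold unscaled). At chr2:113875864-113877886 the heights were 46 and 37, and at chr18:82707031-82707939 they were 46 and 35. At chr5:30062066-30063154 they were 47 and 35, and at chr4:57465491-57465976 they were 50 and 37. All 5 had Mef2Da1 heights near the lower end of the list and blocked heights above the listed 90% point of 30. After total scaling their log2 ratios ran from −1.14 to −0.94.

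The list began where Mef2Da1 height was a little above 40. None of the 1221 regions at a height of 40 or 41 had a listed peak, nor did any lower region. At 42 and 43 there were 3 of 627 and 2 of 592. The listed share was 29.2% at a height of 44, 62.9% at 47, 89.1% at 48 and 98.3% at 53. Between 44 and 47, listed and unlisted regions had alike blocked heights (listed medians 19 to 21, unlisted 19 to 22).

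Among taller regions the blocked library set listed and unlisted ones apart. The authors' table gives each library a value for how unlikely its coverage is, a −log10 p for Mef2Da1 and, for the blocked library, a column treated here as a score because 1 region falls below 0. A Mef2Da1 −log10 p of at least 6 was found in 8003 regions, of which 7522 held a listed peak. Another 731 listed regions had a region value below 6, although every listed peak had its own −log10 p of at least 6.01. The values of regions and of peaks thus differ. Where the blocked score was below 5, 7511 of 7865 were listed (95.5%, exact interval 95.02 to 95.9). Where it was 5 or more, 11 of 138 were (7.97%, 4.05 to 13.8). The change was steep: 97.5% at scores of 3 to 4, 92.8% at 4 to 4.5, 75.2% at 4.5 to 5, 11.9% at 5 to 5.5 and 0 of 29 at 5.5 to 6, where the interval allows up to 11.9%. With a Mef2Da1 −log10 p of 8 or more, a level chosen after the data were seen, the shares were 99.6% below a score of 5 (4223 of 4242) and 7.32% at 5 or more (6 of 82). Whether the list was filtered on the blocked library is not given in the sources used here.

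**Figure D3:**
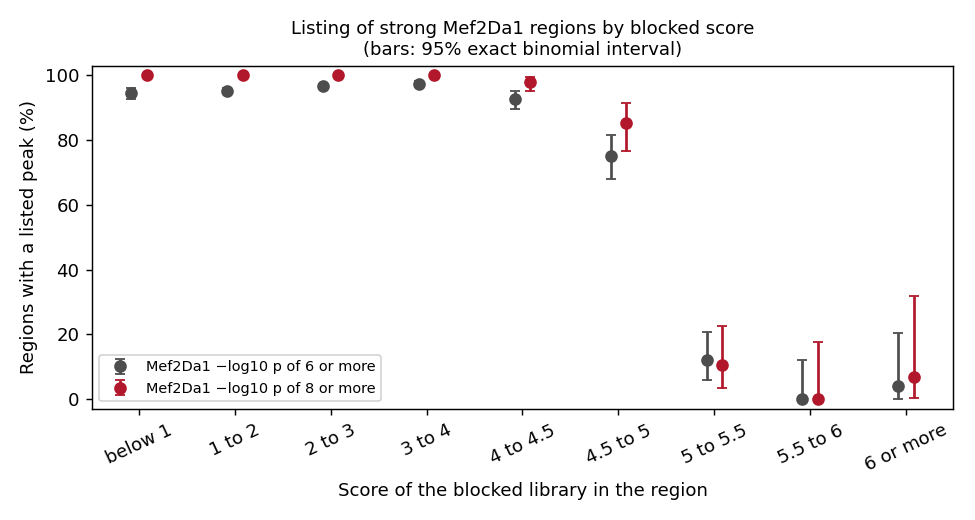
Share of regions with a listed Mef2Da1 peak (vertical, %) by the score of the blocked library (horizontal), for regions with a Mef2Da1 −log10 p of at least 6 or at least 8; bars are exact 95% binomial intervals. The share is above 92% up to a score of 4.5 and at or below 11.9% from 5 upward.

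Of the 481 regions with a Mef2Da1 −log10 p of 6 or more and no listed peak, 127 had a blocked score of 5 or more. Their median height was 62, their median log2 ratio was 0.60 unscaled, and 32 were still at least 2-fold higher (25.2%, beside 64.7% of the table). The other 354 had lower blocked scores and a median height of 47, close to the lower end of the list, and 292 of them had a region −log10 p below 7.

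Several of the strongest Mef2Da1 signals thus stood outside the list. At chr1:94683391-94684276 Mef2Da1 reached 350 against 38 (9-fold unscaled), with a blocked score of 5.12. The region chr11:54335887-54336719 also reached 350, against 39 and with a score of 5.31. At chr1:73961496-73962646 the heights were 312 and 45, at chr19:5723952-5725781 they were 282 and 41, and at chr15:79073231-79074435 they were 248 and 44, with scores of 6.44, 5.68 and 6.03. Each of these 5 had a higher unscaled log2 ratio, 2.47 to 3.17, than the median listed region at 1.54. Their blocked heights were in the uppermost part of the table, whose 90% point was 28. The list alone leaves them out, and whether they are sites of Mef2Da1 was not tested.

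Peak shape was taken from the list. Width had quartiles of 346 and 573 bp around a median of 430 bp, with 10% and 90% points of 300 and 750 bp, and ran from 208 to 2368 bp. Height had quartiles of 50 and 72 around a median of 57. A single peak filled a median of 71.6% of its combined region (8095 regions). Wider peaks tended to be taller, with a Spearman correlation of 0.38 across the 8872 peaks of this 1 library. The narrowest decile of the list, up to 300 bp, had a median height of 49 and none above 84. Median height was 59 in the fifth decile (396 to 430 bp) and 71 in the widest decile (751 to 2368 bp), in which the tallest peak stood at 808. Read the other way, median width rose from 346.5 bp in the lowest decile by height to 584 bp in the tallest decile. How the bounds of a peak were set is not given in the sources used here.

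**Figure D4:**
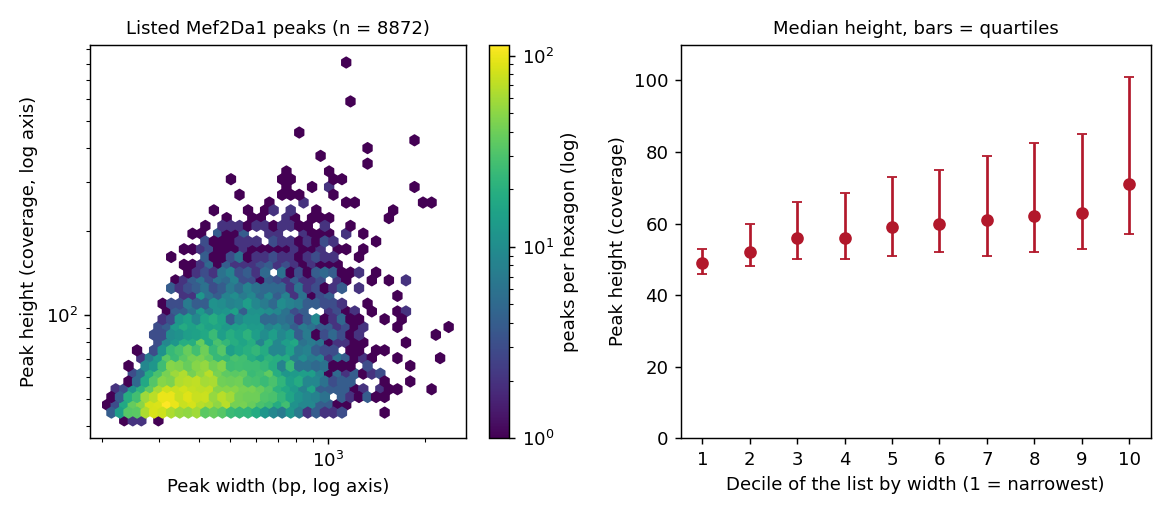
Left: height (coverage, log axis) against width (bp, log axis) of the 8872 listed Mef2Da1 peaks, colour counting peaks per hexagon. Right: median height with quartiles in each decile of the list by width; medians rise from 49 in the narrowest to 71 in the widest decile, and the quartiles of neighbouring deciles overlap.

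Width and height marked out unlike peaks. Taking the widest 10% (750 bp or more) and the tallest 10% (98 or more), 243 peaks were both, 648 were wide and not tall, 659 were tall and not wide, and 7322 were neither. Tall, narrower peaks had a median width of 517 bp and height of 118, a blocked height of 19 in their regions and a median log2 ratio of 2.63. Peaks both wide and tall had a log2 ratio of 2.58. Both tall classes were chosen by Mef2Da1 height, the upper part of the ratio, so their high ratio restates that choice. Wide, lower peaks are better set beside peaks that were neither wide nor tall. The wide ones had a median width of 869.5 bp, a height of 62 and a blocked height of 26, and the others 403 bp, 55 and 20. Their log2 ratios were 1.31 and 1.48. Shares were counted by peak, over the 594 wide, lower peaks and 6955 others that lay in a combined region. Each peak took the ratio of its whole region, so a region with several peaks counted more than 1 time. At least 2-fold higher were 76.4% of the wide, lower peaks and 84.3% of the others, beside 64.7% of regions in the whole table. At least 4-fold higher were 9.76% and 21.1%, beside 14%. After total scaling the 2-fold shares were 3.20% and 9.20%. Blocked height itself rose with region width among listed regions (Spearman correlation 0.33 across 8253 regions), and a maximum taken over more bases has more chances to be high. Whether this alone gives the lower ratio of wide, lower peaks was not tested.

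The steepest peaks, by height per bp of width, were led by chr19:4992440-4993596, 1157 bp wide and 808 high. Next was chr5:148661747-148662240, which reached 307 in 494 bp, against 14 for the blocked antibody. The peaks at chr5:53009469-53010280 (448 in 812 bp), chr6:125553161-125553596 (239 in 436 bp) and chr7:135147127-135147665 (276 in 539 bp) followed. Their heights per bp were 0.51 to 0.70, against a median of 0.14.

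At the widest end, 4 of the 5 widest peaks were on chromosome 15. The widest of all, at chr17:29230391-29232758, spanned 2368 bp with a height of 92 and lay outside the combined regions, so its blocked height could not be read. On chromosome 15 the peak at chr15:77628187-77630394 spanned 2208 bp with a height of 85 against 37, and chr15:75739296-75741359 spanned 2064 bp with only 56 against 32. By contrast chr15:73577137-73579266 was 2130 bp wide and reached 248 against 28. The fourth of them, chr15:59478981-59481155, had a height of 69 and lay outside the combined regions. Narrow peaks were all low: 49 in 208 bp at chr8:19962989-19963196, 46 in 212 bp at chr5:15122187-15122398, 44 in 213 bp at chr3:107950831-107951043, 51 in 215 bp at chr9:90009454-90009668 and 45 in 217 bp at chr15:64040597-64040813.

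In all, 454 listed peaks lay outside the combined regions. These were somewhat lower and wider than the 8418 inside, with a median height of 53 against 58 and a median width of 460 against 428.5 bp, and the tallest reached 218. More than 1 listed peak was found in 158 regions, 2 in 151 and 3 in 7. Regions with 2 peaks had a median width of 1419 bp and heights of 75 and 24, with a log2 ratio of 1.65, against 659 bp, 58 and 20, and 1.54 in regions with 1 peak. The region with the tallest peak among the 7 was chr5:123584473-123588207, where the peaks stood at 162, 415 and 57. In the other 6 the tallest peak was 64 to 137. All 7 were at least 2-fold above the blocked antibody unscaled, beside 85.2% of all listed regions and 64.7% of the whole table. A set of 7 regions is too small to weigh against these shares.

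Listed peaks were spread unevenly. The median distance to the nearest other listed peak was 24.2 kb (quartiles 5.38 and 79.5 kb), and 951 peaks (10.7%) had one within 1 kb. Close peaks were wider: median width was 467 bp with a neighbour within 1 kb, 428 bp with the nearest at 10 to 50 kb and 364.5 bp with none within 1 Mb (90 peaks). Their regions' blocked height went the same way, with medians of 23, 21 and 18. These values were counted by peak, over the 899, 2602 and 81 peaks that lay in a combined region. Each peak took the heights of its whole region, so a region with several peaks counted more than 1 time. A 4-fold margin or more was reached by 28.3%, 25.0% and 46.9% of these peaks, beside 14% of regions in the whole table. Isolated peaks thus had the highest share, over 81 peaks. Mef2Da1 peak height differed less, with medians of 61, 57 and 58.

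Crowding was strongest in 30 windows of 1 Mb with 20 or more listed peaks, out of 1649 windows with any, and 11 of the 30 were on chromosome 15, 4 on chromosome 8 and 3 each on chromosomes 10 and 17. Listed regions in such windows (629) had a median Mef2Da1 height of 58 and a blocked height of 23. Of them, 76.5% were at least 2-fold higher unscaled, beside 85.2% of all listed regions and 64.7% of the whole table. In windows with 5 to 9 peaks (3014 listed regions) the heights were 58 and 20, and 86.8% were 2-fold higher. Regions without a listed peak showed the same shift in the blocked library, whose median was 21 in the crowded windows and 17 in windows with 5 to 9 peaks, beside Mef2Da1 medians of 38 and 36. Without chromosome 15 the crowded windows still had a blocked median of 23 against 20 elsewhere, with 80.1% and 86.3% at least 2-fold higher.

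The most crowded windows, picked after their values were seen, were not alike. The window on chromosome 15 with peaks from 76026296 to 76987298 held 36 peaks, and 15 of its 29 listed regions were at least 2-fold higher, at median heights of 55 and 28. In the window on chromosome 10 from 80133954 to 80959477, with 33 peaks, 29 of 31 were, at 61 and 21. On chromosome 8, from 87025439 to 87956984, 27 peaks gave 18 listed regions, of which 5 were at least 2-fold higher, at 52.5 and 30.5, although the tallest peak there reached 314. The windows of 28 to 30 peaks, ranked between these, gave 16 of 23, 17 of 26, 21 of 23 and 15 of 25. The 2-fold share was 85.2% of all listed regions and 64.7% of the whole table. Among these few windows, each of 18 to 31 listed regions, the number of listed peaks thus went with different margins over the blocked antibody.

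By chromosome, Mef2Da1 height in listed regions was level and blocked height was not. Median Mef2Da1 height in listed regions was 56 to 60 on all 19 autosomes, a range that the common lower end of the list holds narrow. The median blocked height was 16 to 22 on 18 of them and 24 on chromosome 15. Chromosome 15 accordingly had the lowest median log2 ratio, 1.32 unscaled and −0.05 scaled, against 1.44 to 1.94 and 0.07 to 0.57 on the others. At least 4-fold was reached by 15.97% of its 626 listed regions, against 19.8% to 46.3% elsewhere (14% in the whole table). Peaks on chromosome 15 were also wider, with a median of 487 bp against 388.5 to 445 bp, and 17.4% of them were 750 bp or more, against 4.82% to 14.7%. Regions without a listed peak had the highest blocked median there too, 21 against 15 to 19.

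Chromosome 7 stood at the opposite end. Its 320 listed regions had a median Mef2Da1 height of 57.5 and a blocked height of 16, the lowest of all chromosomes. The median log2 ratio was 1.94 unscaled, 95% of the regions were at least 2-fold higher and 46.3% at least 4-fold higher (64.7% and 14% in the whole table). Its peaks were the narrowest, with a median of 388.5 bp, at a median height of 57. The chromosomes with the lowest and highest margin had blocked heights of 24 and 16 and Mef2Da1 heights of 59 and 57.5. The list holds no Mef2Da1 height below 42, which keeps its medians close and does not bound the blocked ones, so these differences cannot be weighed against each other.

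**Figure D5:**
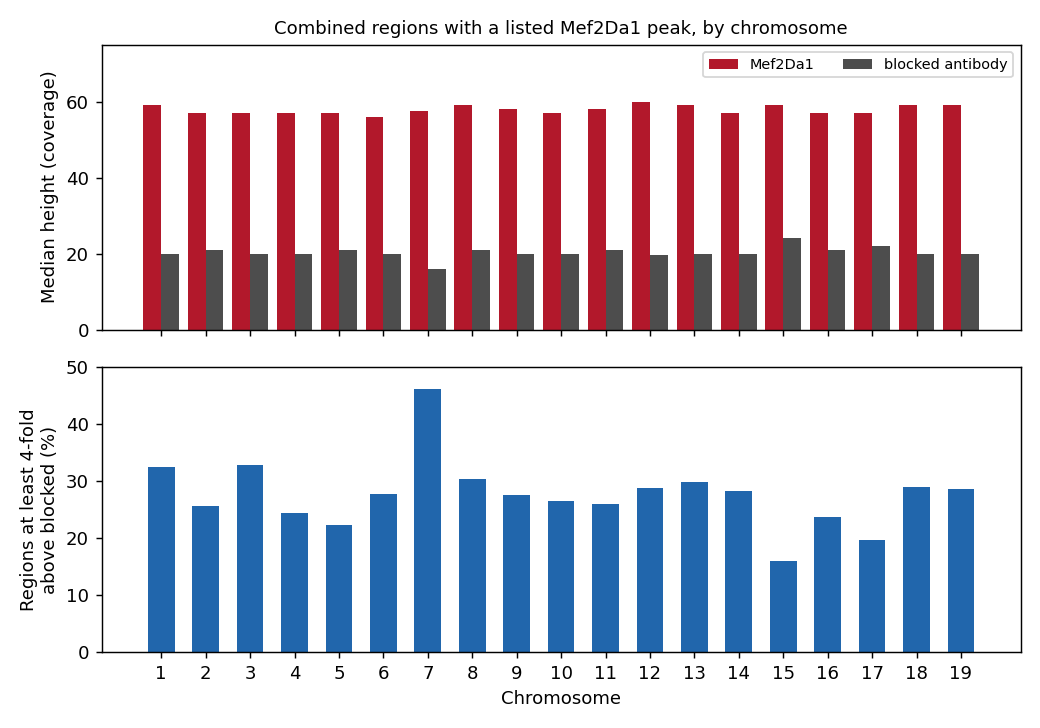
Combined regions with a listed Mef2Da1 peak, by chromosome (horizontal). Top: median height (coverage) of Mef2Da1 and of the blocked antibody; bottom: share with at least a 4-fold margin, unscaled (%). Mef2Da1 medians lie between 56 and 60, a range that the lower end of the list holds narrow. The blocked median is 24 on chromosome 15 and 16 on chromosome 7, where the 4-fold shares are 15.97% and 46.3% (14% in the whole table).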

How the data were processed

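ChIP-seq of the endogenous Mef2Da1 isoform and of its peptide-blocked antibody was read from the deposited files, 1 library each; groups were taken from the antibody label. Per the submitters' processing notes, the tools include BWA 0.5.9 and the build is mm9. How peaks were called and filtered, and how combined regions were chosen, is not given in the sources used here. The deposited signal is a whole-number coverage height, not scaled to depth, and the authors give a −log10 p for each peak and region. The deposited log p column of the blocked library was used as a score, since it falls below 0 in 1 region. Table columns were matched to samples through the name of the sample's own peak list. Starts in the table were read as counted from 0, like those of the list: 40 list starts equalled the start of their region and 0 lay before it.

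A region counted as listed if a peak overlapped it by 1 bp. Ratios used a pseudocount of 1; unscaled values lead, and total scaling subtracts the log2 ratio of summed heights. Depth was unknown, so heights carry no interval. Shares carry exact (Clopper-Pearson) 95% intervals, for counting error only; neighbouring regions are not independent. Correlations are descriptions across regions or peaks, without a p. No test across samples was possible with 1 library a group. Overlap and ratio code was tested on simulated regions. The regions named are the 10 tallest and the 10 with the largest ratio among listed regions, the 5 with the lowest ratio, the 5 tallest without a listed peak, and the 5 widest, narrowest and steepest peaks (height per bp); the region 2-fold lower and the crowded windows were picked after their values were seen. Members, rules and lists were chosen with earlier results of these data known. Planned gene lists were not run, for lack of an mm9 annotation. The tools were SciPy 1.17.1 and pandas 2.3.3 under Python 3.11.15, with NumPy 2.4.6, and Matplotlib 3.10.9 for the plots.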

Additional observations from a re-analysis of the deposited data

How the results depend on the processing

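Of 24 alternative values, 7 stayed within the bounds of the reported value (its 95% interval, or the same second decimal for a correlation), 16 moved and 1 changed sign. The median log2 ratio over all regions was −0.18 with total scaling and 1.04 with a pseudocount of 5; over listed regions it was 0.17 and 1.38. At least 2-fold over the blocked antibody were 7.08% of all and 15.1% of listed regions with total scaling, 9.75% and 19.9% with median-ratio scaling, and 54.4% and 78.7% with a pseudocount of 5. With only peaks at or above the median −log10 p counted as listed, 95.8% of listed regions were at least 2-fold higher. Peak −log10 p follows Mef2Da1 height (Spearman correlation 0.97), the upper part of the ratio, so this rise restates the choice. The peaks so chosen had a median width of 478 bp and a width and height correlation of 0.29. Without chromosome 15, chosen after seeing the data like the −log10 p level of 8, 65.7% of all regions were 2-fold higher and the median width was 425 bp. The Spearman correlation of both heights was 0.040 in listed regions, which were chosen on Mef2Da1 signal, against 0.32 in all. With a −log10 p of 8 or more, 99.6% of regions with a blocked score below 5 were listed. No paired analysis was possible because each group has 1 library, and no replicate could be left out. Unknown depth limits every fold between the libraries.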
